A study of Homo sapiens with 9 samples.

Results

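The genes described here encode the nuclear partners through which β-catenin reaches its target genes: the TCF/LEF factors TCF7, TCF7L1, TCF7L2 and LEF1, the TLE corepressors TLE1, TLE2, TLE3 and TLE4, and the adaptors BCL9 and BCL9L. These 10 genes were picked by name from the 31080 genes measured, and each was found on 1 row of every expression table. A549, an established human lung adenocarcinoma cell line, was transfected for 48 h with a scrambled control siRNA, with siCyclin K#1 or with siCyclin K#2, and total RNA was sequenced. Both latter siRNAs target CCNK, which encodes Cyclin K, the partner of the transcriptional kinases CDK12 and CDK13. Each of the 3 groups held 3 libraries, and no other treatment or allele is named for any group. The question put to these data was how mRNA levels of the TCF, TLE and BCL9 genes differed after Cyclin K silencing. A further question was whether both siRNAs gave the same picture.

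TCF/LEF factors bind DNA through an HMG box. In the absence of nuclear β-catenin they are held silent by TLE proteins, the human counterparts of Groucho, which recruit histone deacetylases. When β-catenin accumulates it binds the amino terminus of the TCF, and BCL9 or BCL9L then links β-catenin to PYGO proteins to activate transcription. Vertebrate TCF7L1 acts mainly as a repressor, whereas TCF7 and LEF1 are often induced by the pathway and act as activators. TLE proteins also serve many other repressors, among them HES and RUNX factors.

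Expression was given as FPKM (fragments per kilobase of exon, scaled to the number of mapped fragments), so levels of different genes can be set side by side. Depth, recovered from the values of low genes, was 31333749 to 33767961 reads per library. The labels do not say whether the libraries of a group came from separate cultures, so p-values measure the spread between these libraries, which may be technical. CCNK was 7.02 ± 0.107 FPKM in controls (SD, n = 3), and fell to 0.809 ± 0.0857 and 0.844 ± 0.0661 under siCyclin K#1 and siCyclin K#2 (adjusted p at most 2.33e-07, limma). Among epithelial markers, KRT8 and KRT18 were at 49.7 to 104.9 FPKM in all libraries, whereas KRT19 and EPCAM did not exceed 0.108 and 0.279. The epithelial marker CDH1 had a mean of 1.64 FPKM in controls, 3.88 with siCyclin K#1 and 1.71 with siCyclin K#2. Every siCyclin K#1 library lay above all other libraries for CDH1. T lymphocyte and endothelial marker sums stayed at or under 0.0445 FPKM. The T lymphocyte sum held only CD247 and PTPRC, since CD3D, CD3E, CD3G and CD2 had no values in these data. The fibroblast markers COL1A1, LUM and DCN summed to 2.18 to 2.62 FPKM in controls, 15.4 to 17.3 in siCyclin K#1 libraries and 3.43 to 3.61 in siCyclin K#2 libraries, mainly through COL1A1. That sum was highest with siCyclin K#1, as was CDH1 and as were TCF7L1 and TLE4 below. Whether the sum or CDH1 bears on the TCF7L1 and TLE4 values was not tested. In bulk RNA, fewer cells with a transcript and less of it per cell cannot be told apart.

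In control cells 1 gene was highest in each family, with 89.2% of the summed FPKM for TCF7L2, 75.3% for TLE1 and 63.9% for BCL9L. TLE1 was highest of all members with 11.5 ± 0.629 FPKM (SD, n = 3), followed by BCL9L with 7.66 ± 0.336, TCF7L2 with 6.90 ± 0.306, BCL9 with 4.37 ± 0.910, TLE3 with 2.38 ± 0.292 and TLE4 with 0.815 ± 0.0357. TLE2 (0.578 ± 0.126), TCF7 (0.446 ± 0.166) and TCF7L1 (0.386 ± 0.0330) came next, and LEF1 was near 0. Library ranges overlapped between TLE2 and TCF7 and between TCF7 and TCF7L1, while all other neighbours in this order were apart. Relative to the 21048 genes tested, TLE1 stood at percentile 84.8 and TCF7L1 at percentile 34.6 of control levels.

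**Figure D1:**
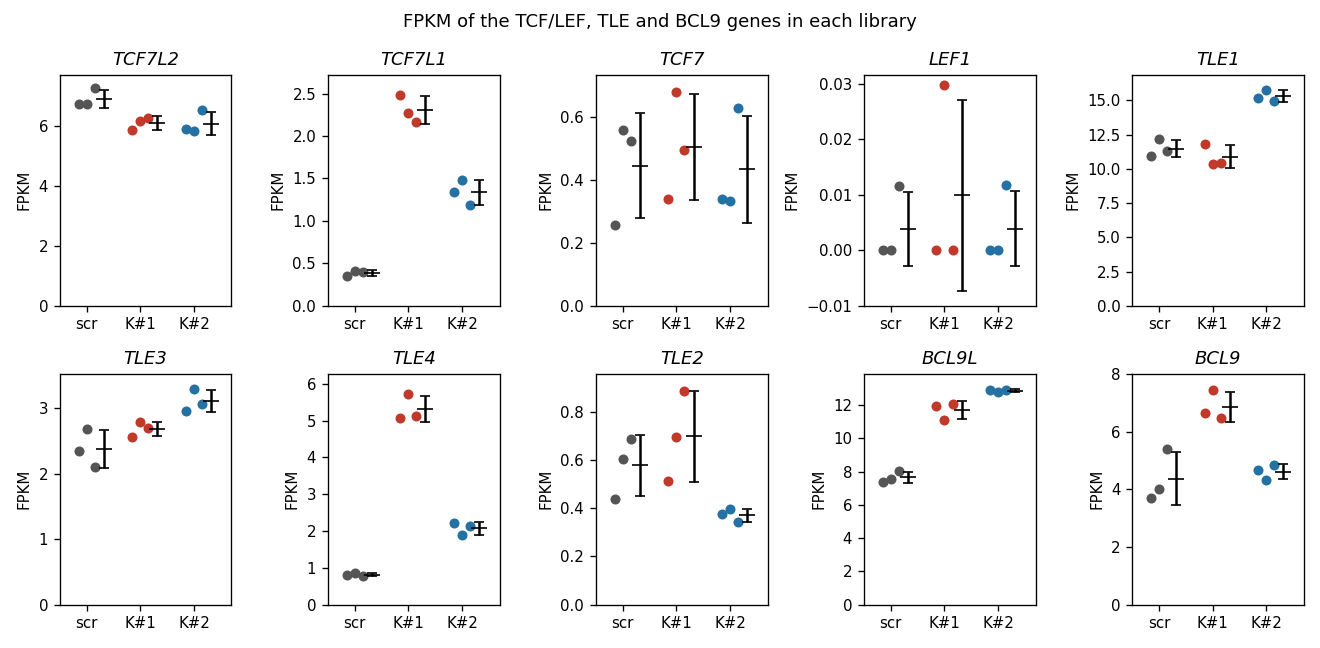
FPKM (y axis, from 0 except for LEF1) of each gene in the scrambled (scr), siCyclin K#1 and siCyclin K#2 libraries; points are libraries and bars are mean ± SD (n = 3). TCF7L1, TLE4 and BCL9L lie above the control range in all 6 siCyclin K libraries, and TCF7L2 lies below it.

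After Cyclin K silencing, TCF7L1, TLE4 and BCL9L were higher with each siRNA while among all genes 15.4% were called higher and 10.3% lower with each. The 2 comparisons share the control libraries. No member was called lower with both, but TCF7L2 was under some alternative settings, given with its values. Levels were tested with limma on log2(FPKM + 0.1) over 21048 genes, with Benjamini-Hochberg adjustment and a call at an adjusted p under 0.05. LEF1 was not tested because it did not reach 0.1 FPKM in 3 libraries. Of the 9 members tested, siCyclin K#1 gave 4 higher and 1 lower, beside 26.8% higher and 18.1% lower among all genes. siCyclin K#2 gave 5 higher and 0 lower, beside 19.8% and 15.2%. Without adjustment, TCF7L2 and TLE2 were also lower with siCyclin K#2 at p under 0.05. The median log2 difference of the members was 0.23 and 0.38 under the respective siRNAs, while the medians over all genes were 0.10 and 0.01. With all 6 siCyclin K libraries set against the 3 controls as 2 groups, 3 members were higher and 0 lower, beside 17.0% and 11.5% of all genes; without adjustment TCF7L2 was lower and TLE3 higher at p under 0.05. Given those shares, calls were common across the whole transcriptome, and the members are described below by size as well as by call.

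TCF7L1, a TCF that mostly represses, lies on the plus strand at chr2:85133410-85310388 of GRCh38. Its FPKM was 0.349, 0.412 and 0.397 in controls, 2.49, 2.28 and 2.16 with siCyclin K#1, and 1.34, 1.48 and 1.19 under siCyclin K#2. The 3 groups did not overlap, and every siCyclin K#2 library lay between the other groups. The ratio of mean FPKM to control was 5.98 with siCyclin K#1, and 3.46 under siCyclin K#2. On the log2(FPKM + 0.1) scale, which understates changes of low genes, the differences were 2.31 ± 0.118 (SE, adjusted p = 8.51e-07, limma) and 1.56 ± 0.118 (adjusted p = 1.53e-05). The siRNAs themselves differed by 0.75 (95% interval 0.48 to 1.02, adjusted p = 0.00153, limma).

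TLE4, a corepressor of the Groucho family, is annotated on the plus strand at chr9:79571773-79726882. Its row was joined with the processed pseudogene AL353813.1, which lies on the same strand within it, so the reads of the 2 cannot be separated. FPKM was 0.803, 0.855 and 0.787 in controls, 5.08, 5.73 and 5.14 with siCyclin K#1, and 2.22, 1.88 and 2.13 under siCyclin K#2. Again the 3 groups were fully apart, with siCyclin K#1 highest. Mean FPKM was 6.52 times control under siCyclin K#1 and 2.55 times control under siCyclin K#2. The log2 differences were 2.56 ± 0.0902 (SE, adjusted p = 1.12e-07, limma) and 1.25 ± 0.0902 (adjusted p = 1.18e-05). TLE4 showed the widest gap between siRNAs of all members, 1.32 on the log2 scale (95% interval 1.11 to 1.52, adjusted p = 1.39e-05, limma).

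Only TCF7L1 and TLE4 passed the stricter selection given in the study's methods, a fold change over 3 with an unadjusted p under 0.01. This rule was applied here to the limma fit, and the study's results text instead states a change of at least 2-fold. TCF7L1 and TLE4 passed with siCyclin K#1, where 3.19% of all genes were higher by this rule, and both passed with the 2 siRNAs combined, where 1.43% were. With siCyclin K#2 neither passed, since the fitted folds were 2.95 for TCF7L1 and 2.37 for TLE4. These folds depend on the constant added before taking logs: with 0.01 in place of 0.1, TCF7L1 passed for siCyclin K#2 as well (fold 3.39), and with 1, the TCF7L1 difference with siCyclin K#1 fell to 1.26 on the log2 scale, and the combined comparison held 0 members past this selection.

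The bases upstream of TCF7L1 and TLE4 are shown because these genes rose with both siRNAs and by the most. They come from the RefSeq promoter table (GRCh38.p14, plus strand), each stopping before both the RefSeq and the GENCODE start, with every CG dinucleotide in capitals. The TCF7L1 stretch is chr2:85133142-85133391 and the TLE4 stretch is chr9:79571715-79571772.
TCF7L1: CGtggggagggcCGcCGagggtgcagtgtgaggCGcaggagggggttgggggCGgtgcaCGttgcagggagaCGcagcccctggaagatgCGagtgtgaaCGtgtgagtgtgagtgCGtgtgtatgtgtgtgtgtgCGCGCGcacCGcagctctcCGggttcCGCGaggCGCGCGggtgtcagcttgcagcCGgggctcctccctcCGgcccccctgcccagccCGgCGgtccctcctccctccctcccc
TLE4: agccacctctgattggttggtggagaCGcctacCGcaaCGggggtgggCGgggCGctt
The 250 bases of TCF7L1 held 24 CG dinucleotides and the 58 bases of TLE4 held 5. The core motif of TCF/LEF factors, ATCAAAG on either strand, was searched in windows from 250 bases before to 50 after each RefSeq start. It was found in 0 of the 9 member windows (BCL9L is not among those windows) and in 2.62% of 35116 windows of all genes. In the same windows TCF7L1 held 31 CG dinucleotides and TLE4 held 22, against a median of 14 over all windows. Of the other members with a window, TLE1 held 44, TCF7 and TCF7L2 held 25 each and TLE3 held 21. TLE2, LEF1 and BCL9 held fewer, with 12, 9 and 3. Some windows lie away from the GENCODE start of the gene. For LEF1 the window is chr4:108166252-108166551, whereas its GENCODE start on the minus strand is 108168956. Among all windows, 37.7% held at least as many as TLE4. These letters describe the sequence only, and binding was not measured.

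BCL9L, an adaptor between β-catenin and PYGO proteins, lies on the minus strand at chr11:118893875-118925608. It gave 7.38, 7.56 and 8.03 FPKM in controls, 11.96, 11.1 and 12.1 with siCyclin K#1, and 12.9, 12.8 and 12.9 under siCyclin K#2. All siCyclin K libraries lay above all controls. The increase was 1.53 times in mean FPKM with siCyclin K#1 (log2 difference 0.61 ± 0.0495 SE, adjusted p = 1.39e-05, limma) and 1.68 times with siCyclin K#2 (0.74 ± 0.0495, adjusted p = 7.65e-06). The difference between siRNAs was -0.14 (95% interval -0.25 to -0.02, adjusted p = 0.0724, limma), which did not pass the test but did after rescaling to a common median ratio (-0.21, adjusted p = 0.0155). Genes on the opposite strand overlap it, among them CXCR5 and UPK2, and whether counting used strand is not given in the sources used here.

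BCL9, its paralog on chr1:147541412-147626216, was higher with siCyclin K#1 alone. FPKM was 3.70, 4.001 and 5.41 in controls, 6.64, 7.44 and 6.46 with siCyclin K#1, and 4.66, 4.32 and 4.83 under siCyclin K#2. The siCyclin K#2 libraries lay inside the control range, and those of siCyclin K#1 above both other groups. The log2 difference was 0.65 ± 0.131 (SE, adjusted p = 0.00329, limma) with siCyclin K#1 and 0.09 ± 0.131 (adjusted p = 0.644) with siCyclin K#2. The siRNAs differed by 0.56 (95% interval 0.26 to 0.86, adjusted p = 0.0120, limma).

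TCF7L2, the main TCF of these cells and the form best known from intestinal epithelium, is on the plus strand at chr10:112950250-113167678. Its FPKM was 6.73, 6.71 and 7.25 in controls, 5.84, 6.16 and 6.27 with siCyclin K#1, and 5.87, 5.82 and 6.51 under siCyclin K#2. All 6 siCyclin K values lay below all controls, by a small margin. The log2 differences were -0.18 ± 0.0621 with each siRNA (SE, limma), with an adjusted p of 0.0472 for siCyclin K#1 and 0.0509 for siCyclin K#2, on either side of the threshold. The call with siCyclin K#1 ended when any control or siCyclin K#1 library, or siCyclin K#2 replicate 1 or 2, was left out (adjusted p 0.0540 to 0.146), without the filter (0.0597) and without the trend (0.0796). Conversely, TCF7L2 was called lower with both siRNAs after median-ratio rescaling (adjusted p = 0.00501 and 0.0226, limma), quantile normalization (0.00800 and 0.0144), a filter at a mean of 1 FPKM (0.0313 and 0.0317) or a constant of 0.01 (0.0467 and 0.0498). It was also called with both under a replicate block (0.0298 and 0.0335) and without siCyclin K#2 replicate 3 (0.0323 and 0.0229). The siRNAs differed by 0.01 (95% interval -0.14 to 0.15, adjusted p = 0.962, limma).

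TCF7 (chr5:134114711-134151865), an activating TCF typical of T lymphocytes, was low and variable, and no comparison gave a call. Controls had 0.256, 0.559 and 0.524 FPKM, siCyclin K#1 libraries 0.341, 0.679 and 0.495, and siCyclin K#2 libraries 0.340, 0.332 and 0.630. The 3 groups overlapped throughout, and these values rest on 87 to 214 reads per library. The intervals were wide: -0.60 to 0.92 on the log2 scale with siCyclin K#1 and -0.78 to 0.73 with siCyclin K#2. Changes within those bounds remain compatible with the data. TCF7 overlaps SKP1 on the opposite strand.

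LEF1 (chr4:108047545-108168956), the lymphoid enhancer-binding factor, was at the detection limit. It had 0, 0 and 2 reads in controls, 0, 5 and 0 under siCyclin K#1, and 0, 0 and 2 under siCyclin K#2, which corresponds to at most 0.0298 FPKM. With so few reads, a difference between the groups at or under that level could not be detected, and no fold is given. The T lymphocyte markers CD247 and PTPRC were likewise at 0 in most libraries.

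TLE1 and TLE3, the most abundant of TLE1 to TLE4 in controls, were called higher with siCyclin K#2. TLE1 (chr9:81583683-81689305) gave 10.9, 12.1 and 11.3 FPKM in controls, 11.8, 10.4 and 10.4 with siCyclin K#1, and 15.2, 15.8 and 14.99 under siCyclin K#2. The siCyclin K#1 libraries overlapped with controls, and every siCyclin K#2 library was above both groups. The log2 difference was 0.42 ± 0.0631 (SE, adjusted p = 0.000927, limma) with siCyclin K#2 and -0.08 ± 0.0631 (adjusted p = 0.379) with siCyclin K#1. Rescaling all libraries to a common median ratio turned the latter into a call, -0.20 with an adjusted p of 0.0265. The direct comparison gave -0.49 for siCyclin K#1 minus siCyclin K#2 (95% interval -0.64 to -0.35, adjusted p = 0.000488, limma).

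TLE3 (chr15:70047790-70098176) gave 2.35, 2.68 and 2.10 FPKM in controls, 2.57, 2.79 and 2.704 with siCyclin K#1, and 2.96, 3.30 and 3.07 under siCyclin K#2. Only the siCyclin K#2 libraries were clear of the control range. The log2 difference was 0.38 ± 0.0958 (SE, adjusted p = 0.0141, limma) with siCyclin K#2, and without siCyclin K#2 replicate 2 the adjusted p was 0.0512. With siCyclin K#1 it was 0.17 ± 0.0958 (adjusted p = 0.181, limma), which became a call without scrambled replicate 2 (adjusted p = 0.0475). The siRNAs did not pass the direct test (-0.20, 95% interval -0.42 to 0.01, adjusted p = 0.154, limma), although their libraries did not overlap.

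TLE2 (chr19:2997638-3047635), the least abundant of the 4 TLE members, gave 0.440, 0.607 and 0.687 FPKM in controls, 0.513, 0.696 and 0.887 with siCyclin K#1, and 0.377, 0.395 and 0.342 under siCyclin K#2. Every siCyclin K#2 library lay below every other library. Against controls the log2 differences were 0.23 ± 0.215 (SE, adjusted p = 0.441, limma) with siCyclin K#1 and -0.51 ± 0.215 (adjusted p = 0.106) with siCyclin K#2, and neither passed. Between siRNAs the difference was 0.73 (95% interval 0.24 to 1.23, adjusted p = 0.0325, limma). This call ended without siCyclin K#1 replicate 2 or 3, without any siCyclin K#2 library, without the filter and with quantile normalization (adjusted p 0.0629 to 0.113 over these).

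**Figure D2:**
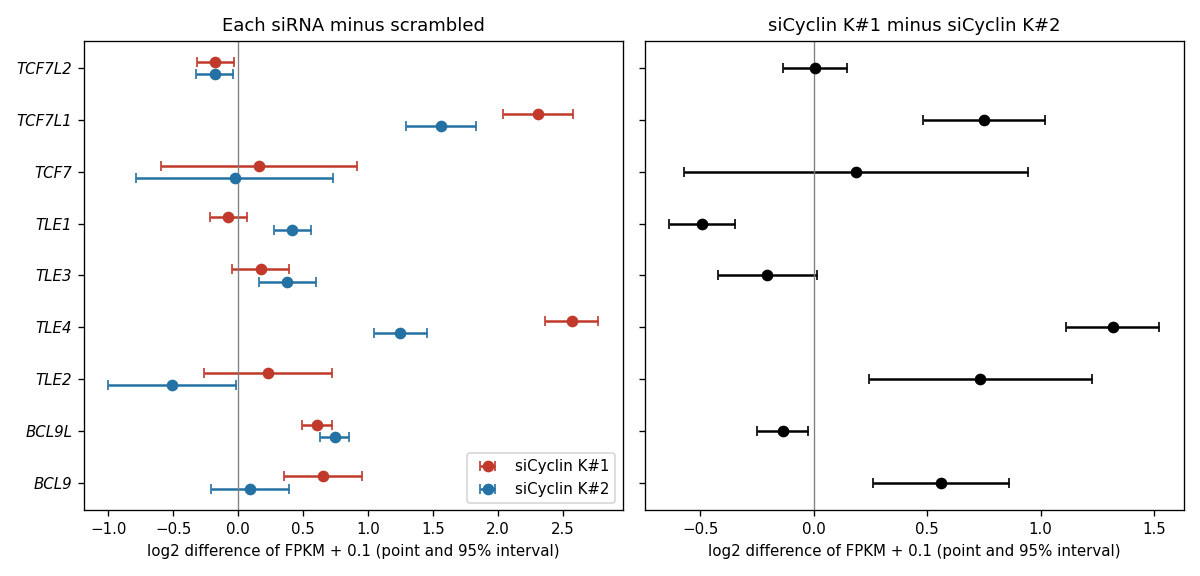
Log2 difference of FPKM + 0.1 (x axis) for the 9 tested genes, each siRNA minus scrambled on the left and siCyclin K#1 minus siCyclin K#2 on the right; points are limma estimates and bars 95% intervals. TCF7L1 and TLE4 lie farthest to the right in the left panel, and TLE1 is on the opposite side of 0 from TLE4 in the right panel.

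Compared directly, siCyclin K#1 was higher than siCyclin K#2 for 4 members (TCF7L1, TLE4, TLE2 and BCL9) and lower for 1 (TLE1), beside 17.1% higher and 12.3% lower among all genes. CCNK itself did not pass this comparison (-0.06 on the log2 scale, adjusted p = 0.726, limma). Among all calls, 59.7% were higher for siCyclin K#1 against scrambled and 58.1% for siCyclin K#1 against siCyclin K#2, and after rescaling to a common median ratio these shares were 49.7% and 46.7%. This rescaling lowered the median of all genes with siCyclin K#1 from 0.10 to -0.002 on the log2 scale and left the direction of TCF7L1, TLE4, BCL9 and BCL9L as reported.

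An exact two-sided permutation test of the 6 siCyclin K against the 3 scrambled libraries gave p = 0.0238 for TCF7L1, TLE4, BCL9L and TCF7L2, whose groups did not overlap. That is the smallest p this test can give. Any gene without overlap receives it, whatever the size of its difference. Of all tested genes, 18.9% had 6 siCyclin K libraries all above the controls and 13.7% all below. For TLE3 the exact permutation p was 0.0476 and for BCL9 0.143. Exact tests of 3 against 3 libraries cannot go below 0.1, so none is given for a single siRNA.

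The TCF/LEF family was less dominated by TCF7L2 in the siCyclin K libraries. TCF7L2 provided 89.2 ± 2.26% of the family's summed FPKM in controls (SD, n = 3), 68.3 ± 1.64% with siCyclin K#1 and 77.4 ± 0.961% with siCyclin K#2. TCF7L1 provided 4.99 ± 0.322%, 25.9 ± 2.39% and 17.1 ± 2.64% in the same order. No library of either siRNA overlapped with controls for these shares. The summed FPKM moved less, from 7.73 ± 0.428 to 8.92 ± 0.240 and 7.84 ± 0.432 under the respective siRNAs.

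The summed TLE level was above the control range with both siRNAs. TLE4 was called higher with each siRNA, and TLE1 and TLE3 with siCyclin K#2 only. Summed TLE1 to TLE4 was 15.2 ± 0.938 FPKM in controls, 19.6 ± 0.417 with siCyclin K#1 and 20.9 ± 0.426 with siCyclin K#2. TLE4 provided 5.36 ± 0.157% of it in controls, 27.2 ± 1.95% with siCyclin K#1 and 9.96 ± 1.02% with siCyclin K#2. TLE1 provided 75.3 ± 0.731%, 55.5 ± 3.24% and 73.4 ± 0.460%. With siCyclin K#1 the order of levels therefore placed TLE4 above TLE3, whereas TLE3 remained above TLE4 with siCyclin K#2. Summed BCL9 and BCL9L was 12.03 ± 1.24, 18.5 ± 0.0397 and 17.5 ± 0.340 FPKM, of which BCL9L provided 63.9 ± 3.64%, 63.1 ± 2.84% and 73.6 ± 0.984%. The TLE4 values include the joined AL353813.1, and TLE1 and TLE4 are loci assembled by StringTie. These shares and sums are descriptions without a test.

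**Figure D3:**
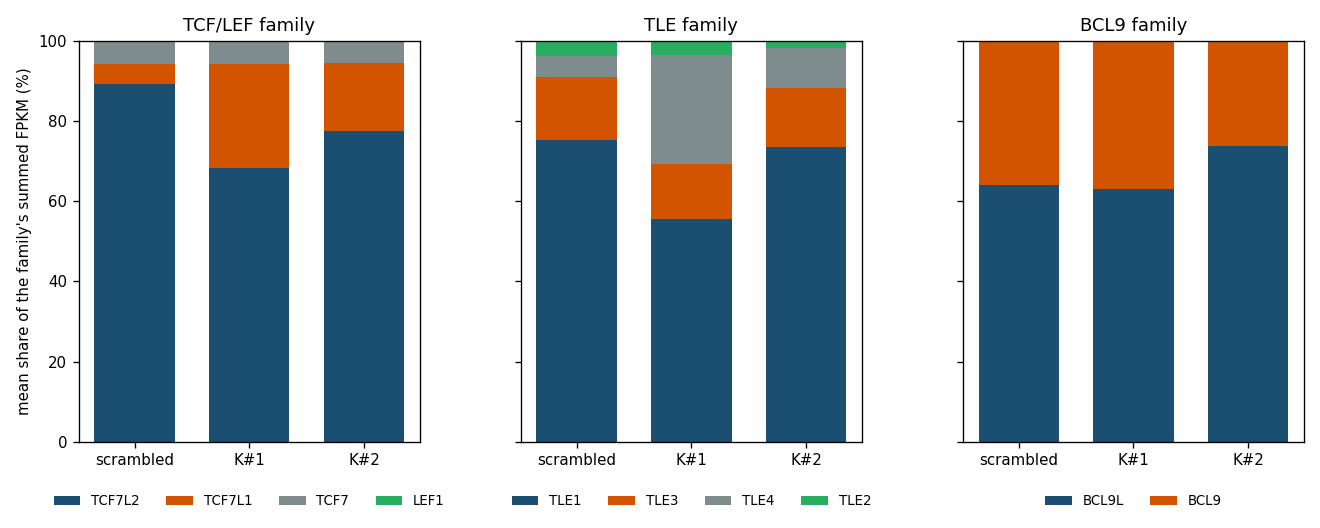
Mean share (y axis, %) of each gene in the summed FPKM of its family, for the scrambled, siCyclin K#1 and siCyclin K#2 libraries (n = 3 each). TCF7L1 makes up 25.9% of the TCF/LEF sum with siCyclin K#1 against 4.99% in controls, and TLE4 makes up 27.2% of the TLE sum against 5.36%. The TLE4 row includes AL353813.1.

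Neither siRNA had a seed match in the 3′ UTR searched for each member. An siRNA can lower unintended mRNAs whose 3′ UTR pairs with bases 2 to 8 of its guide. The matching sites, GTGATAA for siCyclin K#1 and TACAGGT for siCyclin K#2, were searched in the longest annotated 3′ UTR of each gene in GENCODE 29. All 10 members held 0 sites for either seed, whereas 10.3% and 13.1% of 13228 genes held at least 1. Outside the 3′ UTR, only the rest of that same transcript was searched, and there LEF1 alone held 1 siCyclin K#2 site. Other transcripts of the members were not searched.

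The other nuclear partners of β-catenin and TCF held more higher than lower calls. CTNNB1, which encodes β-catenin, was 23.7 ± 0.915 FPKM in controls, 23.2 ± 0.959 with siCyclin K#1 and 22.7 ± 0.806 with siCyclin K#2, and did not pass the test (adjusted p = 0.597 and 0.326, limma). Of 35 partners tested of 37 listed, 17 rose and 6 fell with siCyclin K#1, and 20 rose and 3 fell with siCyclin K#2. Shares among all genes were 26.8% higher and 18.1% lower for the former and 19.8% and 15.2% for the latter. The list had median log2 differences of 0.33 and 0.28 under the respective siRNAs, beside 0.10 and 0.01 over all genes.

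The 5 partners with the largest mean increase were TLE5, CBY1, SSBP2, CTNNBIP1 and HDAC1. TLE5 (AES in the files), a short TLE that lacks the carboxy-terminal repeats, was 5.97, 5.41 and 5.77 FPKM in controls, 23.8, 23.5 and 24.1 with siCyclin K#1, and 20.9, 23.9 and 21.7 under siCyclin K#2. Its groups were far apart from controls, with log2 differences of 2.04 ± 0.0576 and 1.93 ± 0.0576 (SE, adjusted p = 4.38e-08 and 1.54e-07, limma), and its level exceeded that of TLE1 with both siRNAs. CBY1, which encodes the β-catenin antagonist Chibby, went from 1.48 ± 0.276 FPKM to 4.66 ± 0.488 and 3.46 ± 0.0894, with log2 differences of 1.61 and 1.19. CTNNBIP1, which encodes ICAT, a blocker of TCF binding to β-catenin, went from 1.32 ± 0.180 to 3.95 ± 0.222 and 2.93 ± 0.133 FPKM (1.52 and 1.10). SSBP2, a partner of the LDB1 adaptor, went from 0.221 ± 0.0223 to 0.857 ± 0.119 and 0.568 ± 0.0477 FPKM (1.57 and 1.06). HDAC1, a histone deacetylase recruited by TLE proteins, went from 20.6 ± 0.227 to 47.7 ± 0.425 and 43.7 ± 1.60 FPKM (1.21 and 1.08). All of these passed with each siRNA, with adjusted p-values up to 0.000741 (limma).

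Known target genes of β-catenin and TCF held calls in both directions, as did the whole transcriptome. Of 19 tested of 25 listed, 8 rose and 5 fell with siCyclin K#1, and 6 rose and 6 fell with siCyclin K#2. These stand beside the all-gene shares of 26.8% and 18.1%, then 19.8% and 15.2%. RNF43, counted among those that fell with siCyclin K#2, shares its row with SUPT4H1, so its reads cannot be separated. The median log2 difference was 0.19 with either siRNA, beside 0.10 and 0.01 over all genes. CCND1, which encodes Cyclin D1, fell from 72.5 ± 0.546 FPKM to 16.7 ± 0.329 and 20.7 ± 0.685, with log2 differences of -2.11 and -1.81. FOSL1, an AP-1 subunit, fell from 115.1 ± 12.2 to 17.5 ± 0.999 and 66.8 ± 6.74 FPKM (-2.71 and -0.78). BIRC5, which encodes survivin, rose from 6.16 ± 0.205 to 10.1 ± 3.19 and 13.8 ± 0.953 FPKM (0.67 and 1.15). SOX9, a transcription factor, rose from 3.96 ± 0.302 to 5.92 ± 0.314 and 7.46 ± 0.198 FPKM (0.57 and 0.90). TBX3, a T-box factor, rose from 12.7 ± 0.571 to 22.7 ± 1.18 and 18.8 ± 1.07 FPKM (0.83 and 0.56). Adjusted p-values of these genes were at most 0.0141 (limma).

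DNA-binding proteins that recruit TLE also held calls in both directions. Of 14 tested of 20 listed, 6 rose and 3 fell with siCyclin K#1, and 3 rose and 3 fell with siCyclin K#2, while the direct comparison of the siRNAs placed 6 higher and 0 lower under siCyclin K#1 (1 lower at an unadjusted p under 0.05, limma). Among all genes the shares were 26.8% and 18.1%, 19.8% and 15.2%, and 17.1% and 12.3%, so counts such as 3 of 14 lie near the background. The median log2 difference was 0.49 under siCyclin K#1 but -0.24 under siCyclin K#2, beside 0.10 and 0.01 over all genes. HES7, a Hairy-related repressor, fell from 5.62 ± 0.669 FPKM to 1.69 ± 0.522 and 2.23 ± 0.311 (-1.71 and -1.30). HES6 fell from 3.01 ± 0.0736 to 1.66 ± 0.543 and 1.72 ± 0.108 FPKM (-0.87 and -0.78), and RUNX1 fell from 2.06 ± 0.223 to 0.968 ± 0.194 and 1.34 ± 0.103 (-1.03 and -0.58). EN1, a homeobox repressor, rose from 0.438 ± 0.117 to 1.99 ± 0.211 and 0.857 ± 0.206 FPKM (1.97 and 0.83). FOXA1, a forkhead factor, rose from 1.53 ± 0.0201 to 4.82 ± 0.607 and 1.93 ± 0.0796 FPKM (1.59 and 0.32). Adjusted p-values of these genes were at most 0.0287 (limma), and FOXA1 and EN1 also differed between the siRNAs (1.27 and 1.14, higher under siCyclin K#1).

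**Figure D4:**
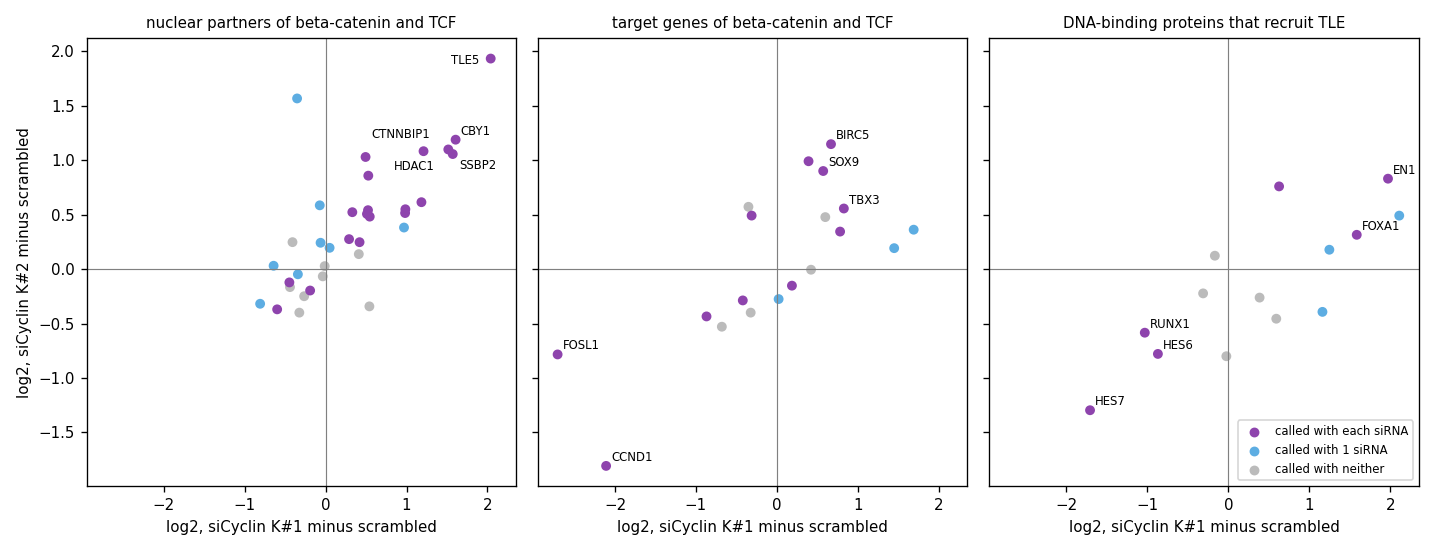
Log2 difference from scrambled with siCyclin K#1 (x axis) and siCyclin K#2 (y axis) for 3 gene lists; each point is a gene, coloured by an adjusted p under 0.05 with each siRNA in any direction, with 1 or with neither. The 2 comparisons share the scrambled libraries. TLE5 lies at 2.04 and 1.93, CCND1 at -2.11 and -1.81.

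Genes whose levels followed the leading member of each family over the 9 libraries are given as a description. Libraries of a group share their treatment, so these values mostly restate the group means. Among 11243 genes with a mean of at least 1 FPKM, TCF7L2 was followed most closely by DNAJC11, WDR7 (joined with WDR7-OT1) and RARS, with Pearson r of 0.953, 0.949 and 0.941 on the log2 scale. For TLE1, the genes that followed closely included RGS3 and APOL2, with r of 0.980 and 0.975. BCL9L was followed by TAF15, ZNF271P and MTSS1L, with r of 0.997, 0.996 and 0.995.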

How the data were processed

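Paired-end reads of total RNA were assembled and quantified by the authors with StringTie 1.3.3b (per the labels), and the deposited FPKM values, 1 file per library, were used. The aligner, filters, annotation release and use of strand are not given in the sources used here. The culture medium differs between the labels and the study's methods. Of 56252 features per file, 25125 without a reference gene were left out, rows of 1 gene were summed and 1344 features joined several genes. TLE1 and TLE4 are loci assembled by StringTie. All 10 members had the same GRCh38 coordinates as in GENCODE 29.

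Genes with at least 0.1 FPKM in 3 or more libraries (21048) were tested with limma 3.58.1 (R 4.3.3, trend) on log2(FPKM + 0.1). The comparison of both siRNAs together used 2 groups and the others a fit of 3 groups with shared spread. The test was checked on simulated data. Exact permutation tests used scipy 1.17.1. Depth came from the steps of low values (94.3% of them whole reads within 0.05 of a read). No pair of libraries in a group held the same values.

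The members and the 3 gene lists were chosen with earlier results of these data known. All members are named; from each list up to 5 genes called the same way with each siRNA are named by the size of the mean log2 difference, with CTNNB1, HDAC1, CCND1 and CCNK in any case. TLE5 was matched by its Ensembl identifier. Listed genes not found in the tables were not analysed here. A feature whose level followed TLE1 is not reported here. Alternatives covered the constant added (1, 0.5 or 0.01), the filter, median-ratio and quantile scaling, the trend, a replicate block, each library left out, joined features left out and the samples in each fit.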

Additional observations from a re-analysis of the deposited data

Results flagged for a closer look

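The effect of siCyclin K#1 and siCyclin K#2 differed for 5 members in the direct limma comparison on log2(FPKM + 0.1). Expressed as siCyclin K#1 minus siCyclin K#2, it came to 1.32 for TLE4, 0.75 for TCF7L1, 0.73 for TLE2, 0.56 for BCL9 and -0.49 for TLE1, with adjusted p-values of 1.39e-05, 0.00153, 0.0325, 0.0120 and 0.000488. Among all genes, 17.1% were called higher and 12.3% lower in this comparison. All 3 libraries of siCyclin K#1 lay on the same side of all 3 of siCyclin K#2 for each of these members. The same held for TLE3 and BCL9L, which were not called. The share of all genes apart in this way was not computed, so this separation is not read as particular to the members. TLE4 and TCF7L1 were above controls with both siRNAs, BCL9 was called with siCyclin K#1 only, TLE1 with siCyclin K#2 only and TLE2 with neither. Groups of 3 are too small for a test of single outlying libraries.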

How the results depend on the processing

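The log2 differences of TCF7L1, TLE4 and BCL9L kept their direction and call with each siRNA and with both together under every alternative that tested them. Leaving out joined features removed TLE4. When the mean of both siRNA contrasts from the 3-group fit replaced the 2-group fit, 9076 rather than 6015 genes and 7 rather than 3 members were called, because differences between siRNAs then leave the error term. The selection at a fold change over 3 held 0 members instead of 2 in the combined comparison with a constant of 1 or 0.5 and 1 without joined features. It held 1 instead of 2 for siCyclin K#1 with a constant of 1 or without joined features, and 1 instead of 0 for siCyclin K#2 with a constant of 0.01. Over single libraries left out, the count for siCyclin K#2 ranged from 0 to 1, with TCF7L1 passing without scrambled replicate 2 or siCyclin K#2 replicate 3. Signs turned only for differences that were not called. TCF7 gave -0.0018 in the combined comparison with median-ratio rescaling, and 0.011 for siCyclin K#2 and -0.0085 between siRNAs with quantile normalization. TCF7L2 between siRNAs gave -0.067 with median-ratio rescaling and -0.018 with quantile normalization, and -0.022 to 0.057 over libraries left out. Over libraries left out, TCF7 ranged from -0.22 to 0.23 in the combined comparison, from -0.12 to 0.37 for siCyclin K#1, from -0.31 to 0.14 for siCyclin K#2 and from -0.016 to 0.43 between siRNAs, and BCL9 for siCyclin K#2 from -0.015 to 0.25. The cause of these changes was not tested. Replicate numbers did not pair the libraries (correlation of deviations -0.0711 to 0.0379 over 9 pairs). With a replicate block, 3, 5, 6 and 5 members were called in the combined, siCyclin K#1, siCyclin K#2 and direct comparisons, against 3, 5, 5 and 5, with TCF7L2 added for siCyclin K#2 (adjusted p = 0.0335, limma), and 4773, 9062, 6947 and 5680 genes. Low counts limit what can be said of group differences in LEF1, which had 0 to 5 reads per library.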
